A study of Homo sapiens with 22 samples.

Results

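The genes described here are 8 that encode the core transcription factors of red blood cell precursors: GATA1, TAL1, LMO2, KLF1, NFE2, GFI1B, ZFPM1 and LYL1. They were chosen by name, with earlier results of these data known. Each was taken as its GENCODE version 44 gene body on hg38 with 50 kb on either side, called its region below. They are 8 of 20033 protein-coding genes. Their regions held 55442 of the 52121915 insertions that the 20 libraries placed on the assembled chromosomes, or 0.106% of the insertions on 0.0180% of the TTAA sites.

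The data are calling cards from K562, an established human leukemia cell line with erythroid features. Each library records where copies of a self-reporting piggyBac transposon landed, and a piggyBac transposon inserts at TTAA tetranucleotides. All cells received by electroporation 5 µg of a barcoded donor transposon (Barcoded-PBase-SRT-Puro) and 5 µg of a helper that supplies the transposase, and were then kept in 2 µg/ml puromycin for 11 days, so every library comes from cells that carry an insertion. RNA of every 3 transfections was pooled. The helper was hyPBase in 10 libraries and hyPBase-centrip in 10, and what sets hyPBase-centrip apart is not given in the sources used here. Cells given the donor alone served the study as a selection control and are not analysed here. Another 2 libraries were left out because their labels contradict each other on the helper. The libraries held 1509672 to 3596762 insertions, and their replicate numbers name libraries, not matched pairs. That the libraries are separate cultures is not stated beyond the transfections, so p-values measure the spread between these libraries.

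Hematopoietic cells become red cell precursors under a small set of factors that bind one another's genes. GATA1 binds GATA motifs, and its cofactor FOG1 is the product of ZFPM1. TAL1, a basic helix-loop-helix protein, is joined to GATA1 on DNA by the bridging protein LMO2, and LYL1 is the close relative of TAL1. KLF1 binds CACCC motifs in globin and other red cell genes, NFE2 is the large subunit of a factor that acts at the globin locus control regions, and GFI1B is a zinc finger repressor.

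The sequence of the most-hit TTAA site is shown first for the regions other than that of TAL1, since the single sites carry much of what follows. Each run below is 30 bases of hg38 on the strand of the gene, 5′ to 3′, with the TTAA in capitals. NFE2 has 2 entries because 2 sites tied.

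GATA1, chrX:48782543-48782572: tatcgcatatcctTTAAaaacaatctgaag
ZFPM1, chr16:88549291-88549320: taaagtcacttctTTAAacgtggggccatt
LYL1, chr19:13080522-13080551: attttaaaccattTTAAacaaagacatggc
LMO2, chr11:33912686-33912715: acattaaggttgaTTAAgtgagtgggccaa
KLF1, chr19:12885182-12885211: agtgagtgcctccTTAAattttgtgcccta
NFE2, chr12:54292731-54292760: ccggtagatgactTTAAtgagctattggca
NFE2, chr12:54303025-54303054: tatatacaccttaTTAAtgtaattccctga
GFI1B, chr9:132980149-132980178: ggtttcggtttgaTTAAtggaatcactcaa

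These sites and the most-hit TAL1 site, 9 in all, were hit in 20 of 20 libraries. The TAL1 site held the most, 602 insertions over all libraries, with 20 to 36 in each library, and 489 TTAA sites of the genome held at least as many. The LMO2 site held 548 and the GFI1B site 426. The sites of LYL1 (308), NFE2 (285 each), KLF1 (241), GATA1 (236) and ZFPM1 (163) followed. Only 2 of the 9 lie in an intron of the member itself (GFI1B and KLF1) and 1 in an exon (NFE2), and the other 6 lie outside the member's gene body. An insertion is told from others at the same site by its barcode and orientation, and 21 barcodes made up at least 0.5% of the insertions each. A site can thus hold about 42 distinguishable insertions in 1 library, and the count of the most-hit sites understates how often they were hit.

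Insertion density was measured as insertions per TTAA site in the region and divided by the same quantity in the surrounding 1 Mb outside the region. Of the 8 regions, 6 were denser than their surroundings by more than 1.5-fold in limma's test against a minimum fold (treat, Benjamini-Hochberg adjusted p below 0.05 over 19848 genes), and none was sparser. Over all protein-coding genes tested, 24.9% were called denser and 21.7% sparser. The median fold of the 8 was 2.55, and that of all genes tested was 1.01. The order of the members was TAL1, NFE2, LMO2, GFI1B, LYL1, GATA1, KLF1 and ZFPM1. Of the neighbours in that order, GFI1B over LYL1 (mean difference 0.270 fold, SD 0.376 over 20 libraries) and LYL1 over GATA1 (0.149, SD 0.300) differed by less than the SD of the difference, each with 15 of 20 libraries in that direction. GFI1B exceeded GATA1 by 0.419 ± 0.306 fold (SD, n = 20) and in 19 of 20 libraries. The other neighbours in the order differed by more than that SD, and the next smallest gap, KLF1 over ZFPM1, was 0.439 ± 0.220 fold (SD, n = 20) and had the same sign in 20 of 20 libraries. The size of some folds depended on how insertions and regions were counted. With barcodes collapsed, so that a site counts at most once per orientation in a library, the log2 ratio fell from 2.71 to 1.89 in TAL1, from 2.28 to 1.65 in NFE2, from 2.10 to 1.44 in LMO2 and from 1.43 to 0.73 in GFI1B. With 20 kb flanks it rose to 3.44 in TAL1 and from 1.27 to 1.94 in LYL1, and with a surrounding window of 2 Mb it rose from 1.18 to 1.94 in GATA1.

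**Figure D1:**
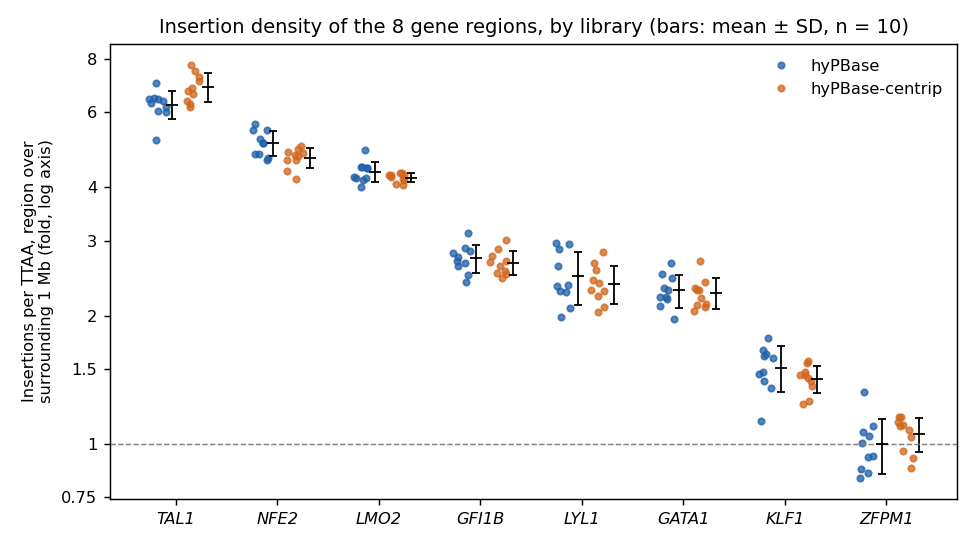
Insertions per TTAA site in each gene region divided by those in the surrounding 1 Mb, on a log axis, with 1 point per library, bars for mean ± SD (n = 10 per helper) and a dashed line at equal density. TAL1 libraries lie between 5.17 and 7.76, NFE2 and LMO2 above 4, and the ZFPM1 libraries on both sides of 1.

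GATA1, whose product opens the erythroid program, lay in a dense region. Its fold over the surrounding 1 Mb ran from 1.96 through a median of 2.25 to 2.66 in the hyPBase libraries and from 2.06 through 2.25 to 2.69 in the hyPBase-centrip libraries. Every library was above 1 and the helpers overlapped throughout. The mean log2 ratio was 1.18 ± 0.027 (SE, adjusted p = 1.0e-15 by limma), higher than in 89.1% of genes.

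The density of the GATA1 region lay upstream of the gene. The upstream flank held 20.4 insertions per TTAA, 3.43 times the surrounding level, against 6.34 (1.07 times) in the downstream flank. The gene body of GATA1 holds only 3 TTAA sites, which took 5 insertions in all, so the density of the body cannot be judged. A dense stretch is a run of windows with more insertions than the TTAA sites and the local rate predict (Poisson p below 1e-04). One of 10590 bases, chrX:48775658-48786247, ended 0.343 kb before the canonical start of GATA1 and held 2030 insertions at 49 TTAA sites, 6.13 times the local rate. A second, chrX:48736621-48739806, lay 46.8 to 50.0 kb upstream and held 43.8 insertions per TTAA. The third by density, chrX:48795344-48798835, lay just past the 3′ end with 25.4 per TTAA, and the nearest start there is that of HDAC6. The 300 bases around the most-hit TTAA of the stretch next to GATA1 (chrX:48782406-48782705, plus strand, with GATAA in capitals, or TTATC, its reverse complement) are shown for their place in the longest stretch beside this gene.

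GATA1 upstream: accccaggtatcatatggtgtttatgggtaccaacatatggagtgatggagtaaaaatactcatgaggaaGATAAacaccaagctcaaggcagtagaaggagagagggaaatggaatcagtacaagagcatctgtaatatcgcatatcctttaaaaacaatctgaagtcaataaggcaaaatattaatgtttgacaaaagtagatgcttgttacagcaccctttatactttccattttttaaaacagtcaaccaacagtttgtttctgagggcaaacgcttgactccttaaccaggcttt

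ZFPM1, which encodes the GATA1 cofactor FOG1, stood at the level of its surroundings. Its fold ran from 0.832 through 0.974 to 1.33 with hyPBase and from 0.882 through 1.09 to 1.16 with hyPBase-centrip. Libraries fell on both sides of 1, and the mean log2 ratio of 0.04 ± 0.037 (SE) was not called (adjusted p = 1 by limma). It was higher than 50.7% of genes. The densest stretch of at least 5 TTAA sites was nonetheless inside the gene, chr16:88456143-88458466, in the intron 2.86 to 5.19 kb past the start. It held 236 insertions at 8 TTAA sites, 6.27 times the local rate. The other 2 of its 3 densest stretches lay beyond the 3′ end, 95.4 to 96.6 kb and 99.7 to 101 kb from the start, with 25.9 and 20.7 insertions per TTAA. The promoter of ZFPM1 (within 1 kb of the start) has 1 TTAA site, which took 15 insertions.

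TAL1, the helix-loop-helix partner of GATA1, had the highest fold of the 8. It ran from 5.17 through 6.34 to 7.02 with hyPBase and from 6.18 through 6.78 to 7.76 with hyPBase-centrip. Every library was above 5, and the helpers overlapped. The log2 ratio was 2.71 ± 0.026 (SE, adjusted p = 1.9e-26 by limma), which placed TAL1 at rank 106 of 19848 genes. Its surroundings were the sparsest of the 8, with 2.61 insertions per TTAA over all libraries against 3.99 to 6.01 around the others. Its region held 17.0 insertions per TTAA, fewer than the 24.2 of LMO2 and the 19.3 of NFE2.

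All parts of the TAL1 region were dense. The fold over the surrounding 1 Mb was 13.4 in the promoter (5 TTAA sites), 11.3 in the gene body (31 sites), 7.03 in the upstream flank and 4.39 in the downstream flank. The longest of the stretches named here, 19365 bases at chr1:47235086-47254450, began 2.86 kb upstream of the start and reached into the 3′ part of STIL, the neighbouring gene on the same strand. It held 4915 insertions at 116 TTAA sites, 10.4 times the local rate. A stretch over the TAL1 start itself, chr1:47229560-47233861, held 725 insertions at 17 sites (10.4 times), and one 36.8 to 40.6 kb past the start, chr1:47191643-47195467, held 780 at 17 sites (11.1 times) with PDZK1IP1 as the nearest start.

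The 3 genes most like TAL1 in the density of promoter, body and both flanks and in body orientation were IDUA, H2BN1 and RSAD2, at standardised distances of 0.632, 0.724 and 0.749 over 18756 genes. IDUA had folds of 24.2, 9.06, 6.94 and 5.02 in promoter, body, upstream and downstream flank. The likeness is a description over pooled libraries, and part of it rests on few sites, since the body of IDUA holds 11 TTAA sites and its promoter 3.

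LYL1, the relative of TAL1, ran from 1.99 through 2.35 to 2.96 fold with hyPBase and from 2.04 through 2.34 to 2.82 with hyPBase-centrip. The region was called denser (log2 ratio 1.27 ± 0.038 SE, adjusted p = 4.9e-14 by limma). Most of that density lay in neighbours. The downstream flank, which is inside NFIX, a gene of the other strand, held 17.0 insertions per TTAA, while the LYL1 body held 94 insertions at 7 TTAA sites (13.4 per site). The densest stretch, chr19:13096224-13097529, lay 5.33 to 6.63 kb past the LYL1 start with 817 insertions at 12 sites, 10.3 times the local rate. A stretch in NFIX, chr19:13080099-13082512, held 49.2 per TTAA, and one over IER2 that passes the edge of the region, chr19:13151998-13156289, held 58.9.

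LMO2, the bridge between TAL1 and GATA1, had the highest insertion density per TTAA of the 8 regions, 24.2 over all libraries. Its fold ran from 4.02 through 4.34 to 4.89 with hyPBase and from 4.06 through 4.25 to 4.32 with hyPBase-centrip, with all libraries above 4. The log2 ratio was 2.10 ± 0.017 (SE, adjusted p = 3.8e-27 by limma), higher than in 98.4% of genes. No other protein-coding gene lies in this region. The promoter held 1346 insertions at 10 TTAA sites, 23.7 times the surrounding density, the gene body 7.01 times and the upstream flank 5.78 times. The downstream flank held 6.15 per TTAA, 1.08 times the surroundings, so the density of LMO2 was one-sided.

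The 3 densest stretches of LMO2 all lay more than 40 kb upstream of its canonical start. That at chr11:33936272-33938585 held 1654 insertions at 13 TTAA sites (127 per site, 15.3 times the local rate), denser than 99.9% of the 110832 stretches of the genome with at least 5 sites. One at chr11:33932949-33935369 held 69.5 per site. One at chr11:33941340-33955967 held 69.2 per site, but most of it lies past the edge of the region. The 300 bases around the most-hit site of the densest (chr11:33937413-33937712, minus strand) hold TTATC in 2 places, in capitals.

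LMO2 upstream: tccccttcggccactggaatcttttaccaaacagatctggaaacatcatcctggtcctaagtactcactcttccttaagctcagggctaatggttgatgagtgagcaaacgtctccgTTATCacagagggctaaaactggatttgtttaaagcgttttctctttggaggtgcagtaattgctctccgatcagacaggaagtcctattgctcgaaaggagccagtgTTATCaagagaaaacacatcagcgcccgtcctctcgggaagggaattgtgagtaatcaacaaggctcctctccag

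KLF1 encodes the CACCC-binding activator of the globin genes. Its fold ran from 1.13 through 1.53 to 1.77 with hyPBase and from 1.24 through 1.44 to 1.57 with hyPBase-centrip, and the helpers overlapped. All 20 libraries were above 1, but the log2 ratio of 0.55 ± 0.033 (SE) did not exceed 1.5-fold in the test (adjusted p = 1 by limma). The call depended on how far the region and the surroundings reached. With 20 kb flanks the log2 ratio was 1.05 (adjusted p = 1.8e-09 by limma), and with a surrounding window of 2 Mb it was also 1.05 (adjusted p = 1.6e-12). KLF1 and LYL1 lie 211831 bases apart, so each is in the surroundings of the other.

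The density of the KLF1 region was highest in the gene itself, though the flanks held 529 (upstream) and 832 (downstream) of its 1778 insertions. The gene body, 2780 bases with 5 TTAA sites, took 417 insertions, or 83.4 per site and 15.5 times the surroundings, whereas the upstream flank stood at 0.938 times and the downstream flank at 1.34 times. One dense stretch, chr19:12881893-12887481, ran from 0.280 kb upstream of the start to 5.31 kb past it and held 673 insertions at 15 sites, 8.06 times the local rate. A stretch at the upstream edge, chr19:12936557-12940031, overlaps CALR, and one at the downstream edge, chr19:12835521-12837713, overlaps HOOK2 and MAST1.

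NFE2, the large subunit of the globin locus factor of the same name, ran from 4.63 through 5.08 to 5.62 fold with hyPBase and from 4.18 through 4.75 to 5.00 with hyPBase-centrip. All libraries were above 4. The log2 ratio was 2.28 ± 0.021 (SE, adjusted p = 4.0e-26 by limma), higher than in 98.9% of genes. The gene body held 719 insertions at 14 TTAA sites (12.9 times the surroundings), and the flanks, which are mostly inside COPZ1 and inside CBX5 and HNRNPA1, stood at 4.16 times upstream and 4.88 times downstream. The exonic site shown above held 285 of the body insertions. The densest stretch of at least 5 TTAA sites, chr12:54297789-54305498, covered the NFE2 start with 1205 insertions at 24 sites, 8.90 times the local rate. One in CBX5, chr12:54256688-54263000, held 2405 insertions at 62 sites (6.77 times), and one in COPZ1 at the region's edge, chr12:54349525-54353102, held 505 at 16 sites.

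GFI1B, the repressor, ran from 2.41 through 2.72 to 3.13 fold with hyPBase and from 2.46 through 2.65 to 3.02 with hyPBase-centrip. The log2 ratio was 1.43 ± 0.024 (SE, adjusted p = 9.9e-20 by limma). Its pattern turned at the canonical start. The 3 TTAA sites within 1 kb of that start held 3 insertions in 20 libraries, while the stretch chr9:132979739-132984297, an intronic one that begins 1.05 kb past the start, held 2550 insertions at 12 sites. That is 212 per TTAA site, 33.7 times the local rate and higher than in 99.99% of stretches with at least 5 sites.

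The annotated body of GFI1B begins 34.7 kb before the canonical start. Dense stretches also lay in that part of the body, such as 1 that was 25.3 to 27.2 kb before the canonical start (1.89 times the local rate). The upstream flank lies beyond that part, in TSC1 on the other strand. It was below its surroundings at 0.739 times, and the downstream flank was at 4.42 times. Downstream stretches at chr9:132993530-133003729 and chr9:133021100-133024877 held 75.4 and 55.6 insertions per TTAA. The 300 bases around the most-hit site of the intronic stretch (chr9:132980012-132980311, plus strand) hold no GATAA and no TTATC.

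GFI1B intron: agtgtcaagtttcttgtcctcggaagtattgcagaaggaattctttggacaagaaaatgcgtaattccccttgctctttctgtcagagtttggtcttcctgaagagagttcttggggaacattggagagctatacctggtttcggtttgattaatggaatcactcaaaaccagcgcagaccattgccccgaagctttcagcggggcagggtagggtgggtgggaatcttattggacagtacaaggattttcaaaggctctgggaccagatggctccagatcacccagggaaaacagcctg

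**Figure D2:**
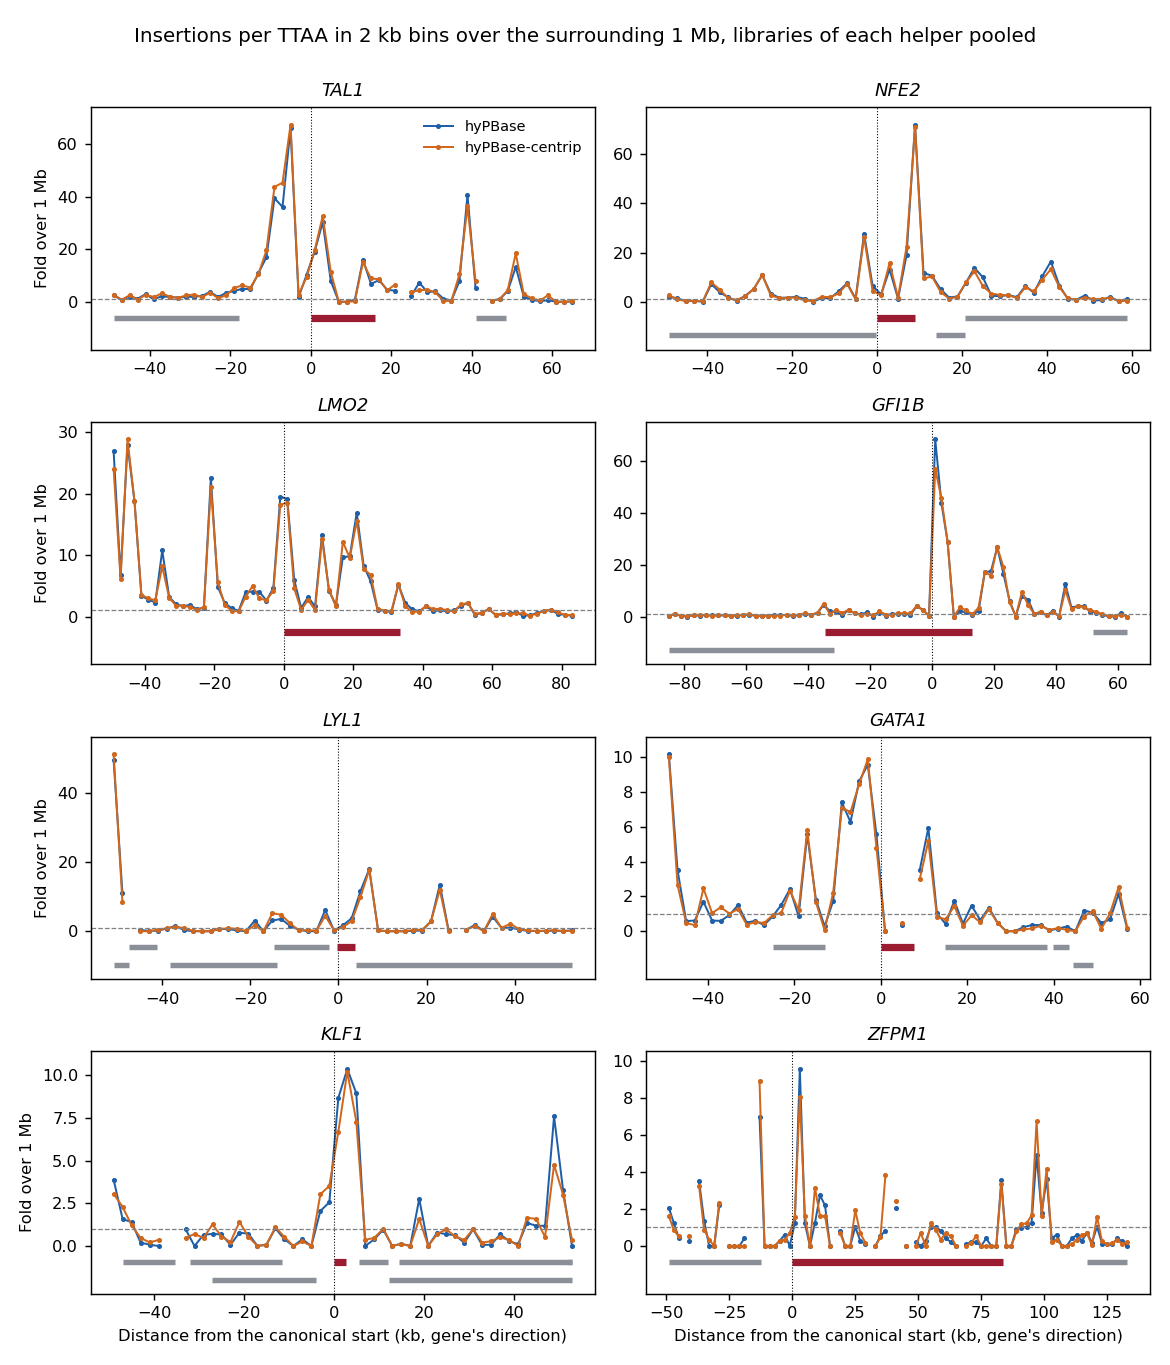
Insertions per TTAA in 2 kb bins divided by the surrounding 1 Mb (linear axis, each with its own scale) against distance from the canonical start in kb in the direction of the gene, with a line for each helper and its 10 libraries pooled. Bars under each panel mark the member (red) and other protein-coding genes (grey, same strand above, other strand below). The helpers trace each other, TAL1 and GATA1 peak before the start and GFI1B and KLF1 after it. Bins with 1 or 2 TTAA sites, such as the peak at 9 kb in NFE2, are set by single sites.

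Where a region holds other genes, its density is shared with them, so the TTAA sites inside other protein-coding genes were also left out. They were left out of the region only. The surrounding 1 Mb kept its sites inside genes, so these folds set unlike kinds of sites against each other. This was done after the data were seen and has no test. On the remaining sites the mean fold over the surrounding 1 Mb was 10.9 ± 1.05 for TAL1 (SD, n = 20, 260 sites), 12.1 ± 2.05 for NFE2 (21 sites), 5.42 ± 0.47 for GFI1B (277 sites), 4.82 ± 0.832 for KLF1 (35 sites) and 3.10 ± 0.272 for GATA1 (208 sites). LYL1 fell to 1.46 ± 0.490 on 15 sites, and ZFPM1 stayed near its surroundings at 1.17 ± 0.160. LMO2, with no neighbour in its region, kept 4.28 ± 0.192. As a ratio to its value with all sites, KLF1 moved most, from 1.47 to 4.82, and in fold units NFE2 did, from 4.88 to 12.1.

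**Figure D3:**
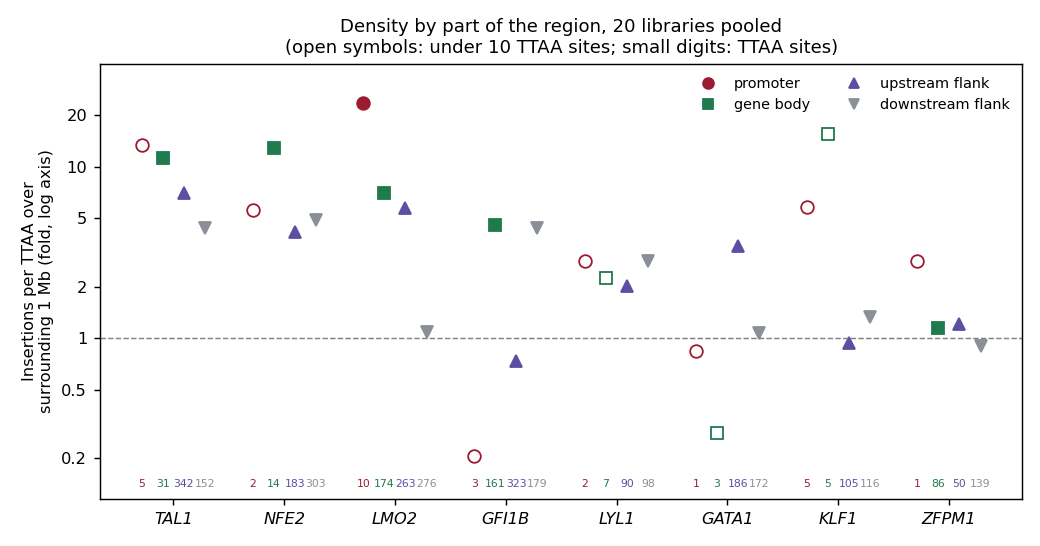
Fold of insertions per TTAA over the surrounding 1 Mb (log axis, 20 libraries pooled) in the promoter (within 1 kb of the canonical start), gene body and both 50 kb flanks of each member, with open symbols for parts of under 10 TTAA sites and the number of sites along the bottom. Body and promoter of GATA1, LYL1 and KLF1 rest on 1 to 7 sites. LMO2 is dense in all parts but the downstream flank. The upstream flank of GFI1B lies below 1, at a fold higher than that of 34.2% of genes.

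In all, 103 dense stretches overlapped the 8 regions, of 123518 in the genome. Each was given a single place, the promoter first, then an exon of the member, then an intron. By that order 6 touched the promoter, 10 of the rest an exon and 11 only an intron, and 38 lay in the upstream and 38 in the downstream flanks. The number per member ran from 6 in KLF1 to 18 in TAL1. Their median fold over the local rate was 3.38, against 2.47 over all stretches. They held 94.5% of the insertions of the TAL1 region on 65.3% of its TTAA sites, and 83.8% of those of GFI1B on 25.8% of its sites. ZFPM1 had the smallest share of insertions inside stretches, 61.3% on 15.3% of its sites. Over the whole genome, stretches held 56.7% of the insertions on 11.2% of the TTAA sites. When each helper was called alone, 82 of the 103 stretches were met in hyPBase and 91 in hyPBase-centrip, and 78 in both. The same shares over all stretches of the genome were not counted. The hyPBase-centrip libraries also held more insertions (median 2.78e+06 against 2.50e+06), so these counts are no comparison of the helpers. The 25 stretches named by rule (the 3 densest with at least 5 TTAA sites in each region and any that differed between helpers) were met in both. They were picked on the pool of both helpers, so that outcome was close to fixed in advance and is no evidence on the helpers.

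The share of TTAA sites with any insertion takes no account of repeated hits, and it ordered the members differently. It was 87.0% in NFE2, 86.0% in LMO2, 79.8% in TAL1, 77.0% in GATA1 and 73.5% in GFI1B, against 48.6% to 66.3% in their surroundings. In KLF1, which was not called denser, it was 68.1%, beside 53.4% around it, a wider gap than in GFI1B (73.5% beside 66.3%), and in ZFPM1 61.5%, beside 58.4%. In LYL1 it was 61.5%, beside 61.2% around it, so the LYL1 excess lay in repeated hits: its 10 most-hit sites held 52.0% of the region's insertions.

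**Figure D4:**
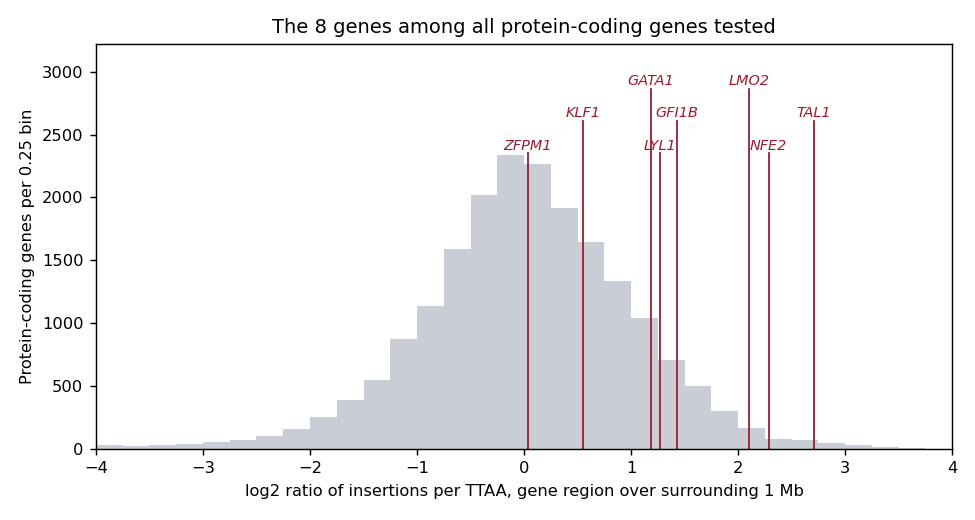
Number of protein-coding genes by log2 ratio of insertions per TTAA in the gene region over the surrounding 1 Mb (bins of 0.25, mean of 20 libraries), with red lines at the 8 members. TAL1, NFE2 and LMO2 lie in the upper tail above 2, and ZFPM1 at the centre.

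The short motifs read by these factors were looked for on both strands in the 300 bases around the most-hit TTAA of each of the 25 named stretches. GATAA was in 12 of the 25 (48.0%), beside 46.7% of all 123518 stretches. CACCC was in 16 (64%), beside 38.4%, and CANNTG in 19 (76.0%), beside 78.5%. TGANTCA was in 3 (12.0%), beside 14.9%. CTG followed 7 to 9 bases later by GATAA, the composite of a TAL1 half-site and a GATA site, was in 1 of 25, beside 4.26%. These are counts of letters near hot sites, which were chosen for their insertions. The shares beside them are over stretches of any density, with no match for base composition and no test. Some of the named stretches overlap other genes, such as CALR and IER2.

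RefSeq promoters (GRCh38.p14, 250 bases before to 50 after a start) were at hand for 6 of the 8 members, 8 sequences in all. The composite occurred in 3 of the 8, those of GFI1B, KLF1 and LYL1, beside 1.86% of 35116 promoters. GATAA was in 4, beside 22.7%, and CACCC in 4, beside 59.9%. The 3 are shown on the strand of the gene, with GATAA or TTATC, and the CTG or CAG of the composite, in capitals.

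GFI1B, chr9:132978444-132978743: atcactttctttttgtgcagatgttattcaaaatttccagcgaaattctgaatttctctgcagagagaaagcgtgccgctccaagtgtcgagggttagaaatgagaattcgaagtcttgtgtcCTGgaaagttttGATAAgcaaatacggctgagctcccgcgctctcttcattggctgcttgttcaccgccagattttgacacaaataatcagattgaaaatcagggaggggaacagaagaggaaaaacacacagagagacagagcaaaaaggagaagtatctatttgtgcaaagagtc
KLF1, chr19:12887152-12887451: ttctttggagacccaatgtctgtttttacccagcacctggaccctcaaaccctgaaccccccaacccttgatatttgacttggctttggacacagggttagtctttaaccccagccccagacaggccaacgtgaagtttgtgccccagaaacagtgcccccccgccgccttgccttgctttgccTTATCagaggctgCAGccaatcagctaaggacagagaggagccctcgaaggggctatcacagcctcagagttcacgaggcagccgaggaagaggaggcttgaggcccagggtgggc
LYL1, chr19:13102809-13103108: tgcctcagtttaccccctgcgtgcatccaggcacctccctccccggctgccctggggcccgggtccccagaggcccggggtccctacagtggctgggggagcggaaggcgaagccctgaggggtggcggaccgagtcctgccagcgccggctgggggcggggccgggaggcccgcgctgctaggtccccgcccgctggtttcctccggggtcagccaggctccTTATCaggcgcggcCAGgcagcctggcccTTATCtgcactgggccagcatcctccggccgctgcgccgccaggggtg

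The KLF1 promoter lies in the dense stretch that covers the gene. The GFI1B promoter stands just before the sharp rise in its intron, and no dense stretch overlaps the LYL1 promoter as printed.

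Orientation was read as the share of insertions in the direction of the gene, with log2 odds tested against 0 by limma over the 12712 gene bodies with at least 200 insertions. Of the 6 members tested, 5 had more insertions against their own direction, where 82.6% of all gene bodies were called that way, and 1, KLF1, had more along its own direction, where 6.8% were. The excess against the gene is thus the common state, with a median of 32.5% along the gene over all bodies tested. GATA1 and LYL1 had too few body insertions to be tested, 5 and 94.

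In GFI1B 30.2% of 3584 body insertions ran with the gene, from 22.1% through 29.7% to 33.9% by library with hyPBase and from 23.8% through 29.6% to 37.3% with hyPBase-centrip. The log2 odds were -1.24 ± 0.066 (SE, adjusted p = 1.0e-13 by limma). TAL1 was alike, with 30.7% of 916 and log2 odds of -1.20 ± 0.11 (SE). In both, 20 of 20 libraries lay below 50%. LMO2 had 39.7% of 6924 (log2 odds -0.61 ± 0.049 SE) and also 20 of 20 below 50%. NFE2 had 38.1% of 719 (-0.71 ± 0.12 SE) with 17 of 20 below, and ZFPM1 43.3% of 524 (-0.37 ± 0.12 SE, adjusted p = 0.0082 by limma) with 14 of 20 below. Both shares depend on single sites. The most-hit body site of NFE2 held 285 insertions, 58.2% with the gene, and the next held 148, 17.6% with it. In ZFPM1 the most-hit body site held 130, 71.5% with the gene, and the next held 55, 16.4% with it. The ZFPM1 call was lost when insertions of 1 read were left out (log2 odds -0.20, adjusted p = 0.19).

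KLF1 stood at the other end. Of its 417 body insertions 408 (97.8%) ran with the gene, and every library lay between 90% and 100%. Its log2 odds of 4.76 ± 0.20 (SE, adjusted p = 2.6e-15 by limma) were above those of 99.99% of the bodies tested, of which 21 (0.165%) had over 90% along the gene. The count rests on 3 of the 5 TTAA sites of the body: 241 of 241 insertions at the site in an intron 2006 bases past the start, 99 of 101 at the intronic site at 512 bases and 52 of 53 at the exonic site at 2734 bases. The most-hit one is printed above, and the other 2 follow for comparison, on the strand of KLF1 with TTAA in capitals.

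KLF1, chr19:12884454-12884483: attgtggctgataTTAActgtcaatggtta
KLF1, chr19:12886676-12886705: agagcccaggagaTTAAggatacagtgagc

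One-sided sites of this kind were frequent. Among TTAA sites with at least 50 insertions, at least 95% had 1 orientation at 16.2% of 121648 sites in the genome and at 60 of 244 sites (24.6%) in the member regions. Insertions at 1 site share its sequence, so the KLF1 test covers the spread over libraries at those 3 sites. The flanks of KLF1 were less one-sided, with 51.0% along the gene upstream and 67.4% downstream. With barcodes collapsed the KLF1 body fell under 200 insertions and could not be tested.

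**Figure D5:**
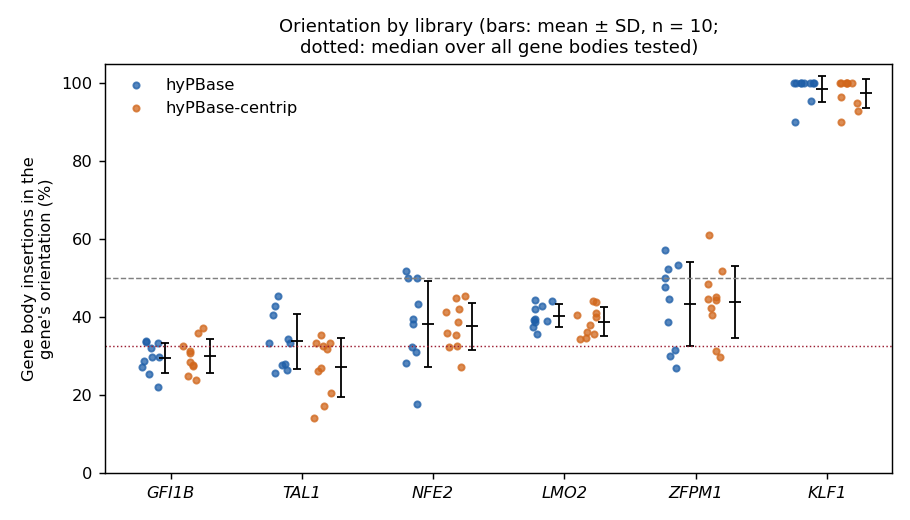
Percent of gene body insertions in the orientation of the gene, 1 point per library, with mean ± SD per helper (n = 10), for the 6 members with at least 200 body insertions. The dashed line is at 50% and the dotted line at the median of all gene bodies tested, 32.5%. KLF1 lies at 90% or above in every library and the other 5 have helper means below 50%.

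In the flanks most insertions lay against the gene they hit, with exceptions. Around NFE2 insertions ran against each neighbour: 20.8% of 3038 were along COPZ1, 19.7% of 4714 along CBX5 and 12.6% of 902 along HNRNPA1, each below 50% in 20 of 20 libraries. Upstream of TAL1, 12.6% of 1543 were along STIL. Between genes the shares were nearer to even, with 47.1% of 6425 in the direction of TAL1, 49.0% of 10332 in that of LMO2 and 54.2% of 3673 in that of GFI1B. In the GATA1 region 63.4% of 3832 between-gene insertions ran in the direction of GATA1, and no library was below 50%. Inside neighbours the share along the gene was above 50% in IER2 near LYL1 (90.7% of 420 insertions at 3 TTAA sites), in DNASE2 near KLF1 (96.6% of 58), in TRMT1 near LYL1 (58.2% of 318) and in 2 genes with under 50 insertions, PDZK1IP1 and SYCE2. These shares are descriptions, with no test.

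The helpers were compared in each region by the quasi-likelihood test of edgeR. No member region differed (0 of 8 at an adjusted p below 0.05, where 3.39% of 19605 gene regions did), and 2, TAL1 and NFE2, had an unadjusted p below 0.05, where 3196 gene regions (16.3%) did. DESeq2 also called 0. The log2 fold of hyPBase-centrip over hyPBase ran from -0.13 ± 0.067 (SE) in KLF1 to 0.11 ± 0.075 in ZFPM1. These folds use the scaling of edgeR (TMM), whereas the CPM given below are scaled to the library total, so they need not match. NFE2 was nearest to a call, with 180 to 213 CPM (insertions scaled to the library total, median 189) with hyPBase and 166 to 193 (median 182) with hyPBase-centrip, log2 fold -0.10 ± 0.032 (SE, adjusted p = 0.060 by edgeR). Without hyPBase-centrip replicate 3, the library of that helper with the fewest insertions, the adjusted p was 0.034. In TAL1 the ranges were 145 to 187 (median 166) and 162 to 191 (median 175), log2 fold 0.07 ± 0.033 (SE, adjusted p = 0.23 by edgeR), and with barcodes collapsed the fold turned to -0.0034. The groups overlapped in both genes.

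Site by site, the counts of the helpers over a region correlated with r from 0.954 in ZFPM1 to 0.988 in TAL1 (Pearson, over 195 to 713 TTAA sites that share base composition and libraries, with no test). Within dense stretches, 2 of the 48 tested in the member regions differed, where 2.84% of 32066 stretches of the genome did. One was the CBX5 stretch in the NFE2 region. It held 41.8 to 59.2 CPM with hyPBase (median 49.4) and 36 to 49.2 with hyPBase-centrip (median 43.9), log2 fold -0.23 ± 0.059 (SE, adjusted p = 0.015 by edgeR). The groups overlapped. Its 300 bases at the most-hit site (chr12:54260519-54260818, minus strand, TTATC in capitals) are shown because it is 1 of 2 stretches that differed.

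NFE2 region, in CBX5: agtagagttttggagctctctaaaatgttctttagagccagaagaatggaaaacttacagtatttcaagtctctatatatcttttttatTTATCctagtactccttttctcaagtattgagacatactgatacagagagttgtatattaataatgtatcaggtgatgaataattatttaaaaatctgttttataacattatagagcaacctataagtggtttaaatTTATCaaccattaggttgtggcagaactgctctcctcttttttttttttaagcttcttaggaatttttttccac

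The other was chr19:13113078-13117916 in the LYL1 region, over TRMT1 and NACC1, with 2.47 to 8.75 CPM with hyPBase (median 3.79) and 5.53 to 9.25 with hyPBase-centrip (median 6.59). Its log2 fold was 0.59 ± 0.17 (SE, adjusted p = 0.028 by edgeR), on 6 to 26 insertions in a library. DESeq2 called neither (adjusted p = 0.083 and 0.12), and the LYL1 call was also lost with a looser filter (adjusted p = 0.083). In orientation 0 of the 6 members and 0 of 12712 gene bodies differed between helpers by limma, with 1540 bodies at an unadjusted p below 0.05. TAL1 was the 1 member among these, whose share along the gene was 33.7% ± 7.11 for hyPBase against 27.1% ± 7.56 for the other helper (SD over 10 libraries, adjusted p = 0.40 by limma).

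Other genes of the pathway were taken as lists, also chosen with earlier results of these data known. Of 24 partners and further regulators, 23 could be tested and 14 were denser than their surroundings (60.9%, beside 24.9% of all genes) and 1 sparser, with a median fold of 1.66. RUNX1 could not be tested, since its annotated body is longer than the 1 Mb window. IKZF1, a zinc finger regulator of blood lineages, had the highest fold at 8.48, above TAL1, and STAT5A, which acts below the erythropoietin receptor, stood at 3.80. MYB stood at 2.52, GATA2 at 2.04 and LDB1, which holds the TAL1 and LMO2 complex together, at 2.31. BCL11A, the silencer of fetal globin, was the sparser one at 0.439. The regions of STAT5A and STAT5B overlap and share insertions.

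Of 16 target genes of the members, 10 were denser (62.5%, beside 24.9% of all genes) and 0 sparser (beside 21.7%), with a median fold of 1.96. HBG1 stood at 7.54, HEMGN at 4.32 and CPOX, an enzyme of heme synthesis, at 3.79, while EPOR, the erythropoietin receptor, stood at 0.894 and was not called. The HBG1 and HBG2 regions overlap, as do those of HBA1 and HBA2, so their calls share insertions. HBG2 stood at 2.96. Of 18 regulators of other cell types, 2 were denser (11.1%, beside 24.9%) and 7 sparser (38.9%, beside 21.7%), with a median fold of 0.799. PAX5 of B cells was lowest at 0.272, and CEBPA and CEBPE of myeloid cells were the 2 denser ones at 1.62 and 1.61. Between helpers, 3 of 23 regulators, 4 of 16 targets and 3 of 18 other-lineage genes differed, where 3.39% of all gene regions did. Over all gene regions the calls fell from 664 to 44 with barcodes collapsed and to 71 on the ratio to the surroundings, an alternative chosen after seeing the data. KLF3, MYB and SOX6 among the regulators and HBG1, HBG2, HEMGN and TFRC among the targets were all lower with hyPBase-centrip, and PAX5, HNF4A and CEBPE all higher.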

How the data were processed

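Calling cards libraries of K562 cells were analysed, 10 per helper. The authors deposited for each library a list of insertions with position, read count, strand and barcode, on hg38; their processing notes name Trimmomatic, BWA and SAMtools, with versions not given in the sources used here. Each listed insertion was counted once, and insertion counts were the unit of every test. The reads behind an insertion were used only as an alternative filter. Counts were taken per TTAA site of hg38.

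Density (log2 ratio, pseudocount 0.5, at least 100 TTAA sites in the surroundings) and orientation were tested with limma 3.58.1, helpers with the quasi-likelihood test of edgeR 4.0.16 (TMM; at least 10 insertions in 10 libraries), with DESeq2 1.42.0 as an alternative, in R 4.3.3. Adjustment was over all features tested. Dense stretches were called on the pooled libraries without a background library, in windows of 1500 bases every 500 bases against the local 1 Mb (pseudocount 0.2, at least 5 insertions). Counts were made with Python 3.11.15 and pysam 0.24.0. The tests were checked on simulated data.

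All 8 genes were named. In each region the 3 stretches with the most insertions per TTAA among those with at least 5 sites were named, with any stretch that differed between helpers and the most-hit site; for the gene of highest fold, the 3 most like it. Members and lists were chosen with earlier results of these data known. The 2 libraries whose labels name different helpers were not used. The sequence around the most-hit TAL1 site is not reported here. Replicate numbers did not pair the libraries (r of deviations -0.0466 to 0.0457 over 10 pairs). Any 2 libraries shared 8.78% to 15.1% of the exact insertions of the smaller of the 2. Depth was 1509672 to 3596762 insertions a library, 43 to 1134 of them in a member region, and errors are the spread between libraries. Alternatives tried were other flanks, windows, pseudocounts, filters, minimum folds and callers, collapsed barcodes, left-out libraries and a replicate block.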

Additional observations from a re-analysis of the deposited data

Results flagged for a closer look

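Of 28 groups of 10 libraries checked (the fold of each member region, and the body orientation of the 6 members tested, by helper), 2 held a library far from the others. The LMO2 region stood at 4.89 times its surroundings in hyPBase replicate 8, and the other 9 hyPBase libraries lay between 4.02 and 4.47. In the KLF1 body 90% of insertions ran with the gene in hyPBase replicate 6, where 2 of 20 insertions lay the other way, and the other 9 hyPBase libraries lay between 95.5% and 100%. About 1 in 20 groups is expected to be picked by chance under this rule, which assumes continuous values, and most KLF1 libraries were tied at 100%.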

How the results depend on the processing

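The 6 dense regions kept their direction and call under every alternative that was tested. The size moved by over 1.5 times in TAL1, NFE2, LMO2 and GFI1B with barcodes collapsed (log2 1.89, 1.65, 1.44 and 0.73). It also did so in TAL1 and LYL1 with 20 kb flanks (3.44 and 1.94) and in GATA1 with a 2 Mb window (1.94). KLF1 was called as well with 20 kb flanks or a 2 Mb window. Leaving out the sites inside other protein-coding genes had no test, so no call can be given there. Without those sites the mean fold of LYL1 fell from 2.43 to 1.46 ± 0.490 (SD, n = 20, 15 sites), below the minimum fold of 1.5. The folds of TAL1, NFE2, GFI1B and GATA1 rose, and that of LMO2 was unchanged. ZFPM1 turned from 0.04 to -0.0136 (log2) with a 2 Mb window. Over all genes, a minimum fold of 2 left 2669 denser (from 4933) and 2248 sparser genes (from 4310), and collapsed barcodes left 2614 sparser. Stretches called in the genome fell from 123518 to 73756 at p below 1e-10. Between helpers, the number of gene regions called was 664, and 44 with barcodes collapsed, 344 by DESeq2 and 71 by limma on the ratio to the surroundings, which was chosen after seeing the data. Member regions called went from 0 to 1 (NFE2) without hyPBase-centrip replicate 3. Member stretches called went from 2 to 0 by DESeq2 and to 1 with a filter of at least 1 insertion, and stretches in the genome from 910 to 315 by DESeq2. Small helper folds turned sign: TAL1 to -0.0034 with barcodes collapsed, LMO2 to 0.0337 and GFI1B to 0.0874 with insertions of at least 2 reads, GFI1B to 0.0183 with 20 kb flanks, and the TAL1 stretch near PDZK1IP1 to 0.00858 without hyPBase-centrip replicate 3. The helper difference in orientation (log2 odds) turned in NFE2 to 0.0037 with at least 2 reads and 0.13 with barcodes collapsed, and in GFI1B to -0.0757 with at least 2 reads. Members with more insertions along the gene went from 1 to 0 with barcodes collapsed, where KLF1 had too few insertions to test. The cause of the other changes was not tested.

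With the replicate block, 603 gene regions and 0 members, 862 stretches and 2 in member regions, and 0 body orientations differed between helpers. It changed no member's call. Depth limits KLF1, ZFPM1 and LYL1 most, whose regions held 43 to 187 insertions a library, and bodies with few TTAA sites (3 in GATA1, 5 in KLF1, 7 in LYL1).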
